A study of Homo sapiens with 4 samples.

Results

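FOXK1 peaks around tRNA genes were followed in HK-2 cells, an immortalised human proximal tubular epithelial line. A peak belonged to the set if it overlapped, by at least 1 bp, a RefSeq tRNA gene with 1 kb added on either side, on chromosomes 1 to 22 and X. By this rule 277 of 439123 peaks (0.0631%) in the list from TGF-β1-treated cells and 258 of 381673 peaks (0.0676%) in the list from untreated control cells lay around 429 tRNA genes. TGF-β1 is a profibrotic cytokine; the treated cells had received it at 10 ng/ml for 24 h, and the control cells had not. FOXK1, a forkhead transcription factor, was immunoprecipitated from fixed chromatin, which gave 1 FOXK1 library per condition, with 1 input library beside it. With 1 library per condition no difference between conditions can be tested, and no p-value is given. The lists hold no expression values, so the cell type could not be checked against marker genes.

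tRNA genes are short genes transcribed by RNA polymerase III (Pol III). Their promoter lies inside the gene, in elements called the A box and the B box, which the factor TFIIIC binds; TFIIIC places TFIIIB upstream of the start, and TFIIIB brings in the polymerase. Copies of a tRNA gene with an identical mature sequence can lie on several chromosomes, and many human tRNA genes are gathered in clusters, the largest of them beside the histone genes of chromosome 6. Gene symbols give the amino acid in 1 letter, the anticodon, a number for the mature sequence and a number for the copy, so that TRH-GTG1-9 is a histidine tRNA gene with anticodon GTG. X stands for the initiator methionine tRNA, which starts translation, and U for the selenocysteine tRNA, which reads a UGA codon as selenocysteine.

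The sequences below show genes that share a sequence and differ in their peaks, beside others with and without peaks. Each was read from a RefSeq promoter window (GRCh38.p14) that covers the whole tRNA gene, which was the case for 14 of the genes searched. The search left out some of the 429 genes, so 14 is not a count over all of them. They run 5′ to 3′ on the strand that carries the B box letters, and capitals mark GTTCNANNC, the core of the B box consensus, which occurs 1 time in each of the 14 genes. The heights given are those of the highest peak within 1 kb, with 0 for no peak.

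TRH-GTG1-9: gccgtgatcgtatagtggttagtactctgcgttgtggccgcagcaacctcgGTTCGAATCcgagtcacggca

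TRH-GTG1-3: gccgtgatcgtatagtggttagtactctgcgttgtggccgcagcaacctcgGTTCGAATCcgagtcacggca

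TRP-TGG3-2: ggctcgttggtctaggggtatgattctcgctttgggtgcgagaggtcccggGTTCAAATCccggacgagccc

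TRP-TGG3-5: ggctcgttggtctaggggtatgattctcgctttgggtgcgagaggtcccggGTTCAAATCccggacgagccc

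TRI-TAT2-2: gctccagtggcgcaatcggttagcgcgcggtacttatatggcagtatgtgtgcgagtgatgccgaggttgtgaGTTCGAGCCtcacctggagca

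TRI-AAT8-1: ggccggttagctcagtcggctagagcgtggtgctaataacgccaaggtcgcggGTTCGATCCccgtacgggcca

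TRA-AGC2-2: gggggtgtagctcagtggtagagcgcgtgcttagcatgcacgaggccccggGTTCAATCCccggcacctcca

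TRN-GTT6-1: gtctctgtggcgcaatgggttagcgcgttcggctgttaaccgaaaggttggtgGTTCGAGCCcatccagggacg

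TRH-GTG1-9 (chr15:45201151-45201222, plus strand) had a highest peak of 9 in TGF-β1-treated cells and 11 in control cells. These peaks lay 501 bp (TGF-β1) and 518 bp (control) from the gene, which is 35 bp from the end of the protein-coding gene SHF; on the gene itself there was no TGF-β1 peak and a control peak of height 9. TRH-GTG1-3 (chr1:148281365-148281436, plus strand) has the same 72 bases and had no peak within 1 kb in either list. It lies in a region of NBPF genes, a duplicated gene family, where its count is uncertain, since how reads that match several copies were treated is not given in the sources used here. The proline pair is also identical: TRP-TGG3-2 (chr14:20684016-20684087, plus strand) had 10 in TGF-β1-treated cells, on the gene, and 12 in control cells, from a peak 952 bp away beside one of 11 on the gene, and TRP-TGG3-5 (chr16:3188094-3188165, plus strand) had 7 in TGF-β1-treated cells and 5 in control cells, from peaks beside the gene and not on it. The heights at identical genes differed in both pairs, with peaks on and beside the genes. TRI-TAT2-2 (chr6:27020346-27020439, plus strand), an isoleucine gene of 94 bases, had 18 in TGF-β1-treated cells and 14 in control cells. TRI-AAT8-1 (chr6:27668583-27668656, plus strand), also isoleucine, had 7 in TGF-β1-treated cells and 14 in control cells. TRA-AGC2-2 (chr6:28863685-28863756, minus strand), an alanine gene, had 10 in TGF-β1-treated cells and 12 in control cells. TRN-GTT6-1 (chr1:143735920-143735993, minus strand), an asparagine gene, had no peak in either list, and it too holds the B box core. TRN-GTT4-1, another asparagine gene of chromosome 1, has a near-identical sequence. The lack of a peak at TRN-GTT6-1 is therefore uncertain, as the treatment of reads that match several copies is not given.

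The measurement behind every value is the authors' pileup height, a signal in whole numbers of at least 3 that the deposited lists give for each peak. The number of reads per library is unknown, and deeper sequencing gives more and higher peaks. Heights and counts of the 2 lists printed side by side are therefore not a measure of change with TGF-β1. A strong peak is one at or above the height of the peak ranked 10000 in its own list, ties kept. That height was 15 in the TGF-β1 list, which gave 11341 strong peaks, and 17 in the control list, which gave 11070. Intervals are exact 95% binomial intervals; they cover counting error only, and they are too narrow because tRNA genes in a cluster share peaks.

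FOXK1 peaks were found at most tRNA genes, at about the same share in both conditions. In TGF-β1-treated cells 269 of 429 tRNA genes (62.7%, interval 57.9 to 67.3) had a peak within 1 kb, against 268 (62.5%, interval 57.7 to 67.1) in control cells. Of 1393715 genome tiles of the same width, 2073 bp, 32.4% held a peak of the TGF-β1 list and 29.1% a peak of the control list. Tiles were laid over the blocks of the genome that hold any peak. Strong peaks stood further above the background: 71 tRNA genes (16.6%, interval 13.2 to 20.4) in TGF-β1-treated cells and 77 (17.9%, interval 14.4 to 21.9) in control cells had one, against 1.16% of tiles for the TGF-β1 list and 1.14% for the control list. A peak of height 10 or more lay within 1 kb of 142 tRNA genes (33.1%) in the TGF-β1 list and 175 (40.8%) in the control list, against 2.78% (TGF-β1) and 3.42% (control) of tiles. Chromosome 6 holds 154 of the genes, and the shares with a peak of any height were alike there and elsewhere: 97 genes (63%) in the TGF-β1 list and 96 (62.3%) in the control list had a peak on chromosome 6, where 36.7% (TGF-β1) and 29.2% (control) of tiles did, and 172 of the other 275 genes (62.5%) had one in each list. A strong peak was at 13% (TGF-β1) and 14.9% (control) of the genes on chromosome 6 and at 18.5% (TGF-β1) and 19.6% (control) of the others.

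The share of tRNA genes with a strong peak was near that of protein-coding gene starts. A window of the same width around a protein-coding start held a peak in 67.9% of 15812 cases in TGF-β1-treated cells and 68.7% in control cells, and a strong peak in 15.5% (TGF-β1) and 16.9% (control). Genes for small nuclear RNAs, the RNAs of the splicing machinery, had a peak in 57.7% of 149 cases in the TGF-β1 list and 51% in the control list, with strong peaks at 24.2% (TGF-β1) and 22.8% (control). Genes for small nucleolar RNAs, which guide RNA modification, had strong peaks at 3.03% of 1190 genes in the TGF-β1 list and 2.27% in the control list. Strong peaks were likewise at 3.77% (TGF-β1) and 4.13% (control) of 1911 microRNA genes. The intervals for tRNA genes lay above those for small nucleolar RNA and microRNA genes and overlapped those for small nuclear RNA genes. These shares were described and not tested.

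**Figure D1:**
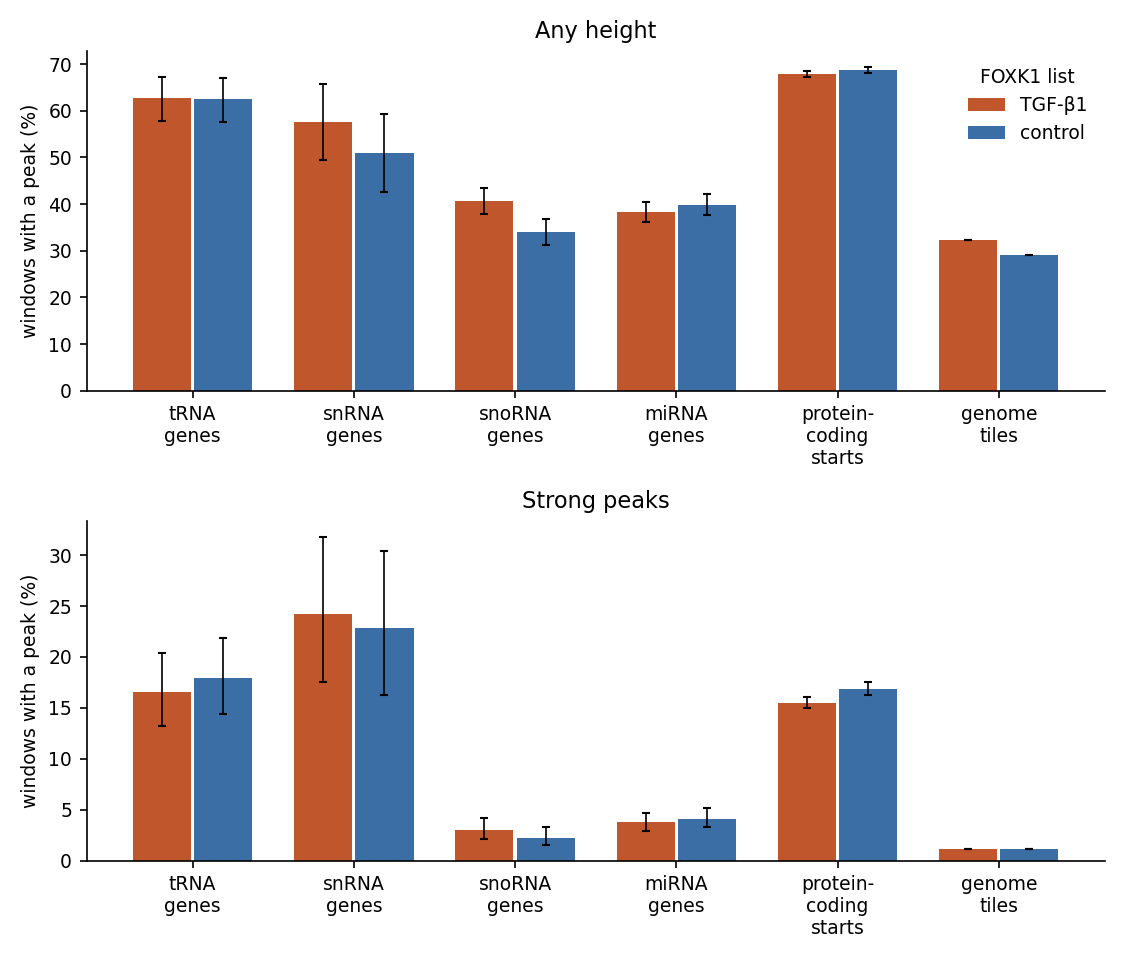
Share of gene windows and genome tiles (vertical axis, percent) that held a FOXK1 peak of any height (upper panel) or a strong peak (lower panel), with the TGF-β1 list left of the control list for each class and bars for the exact 95% binomial interval. tRNA genes stand at 62.7% (TGF-β1) and 62.5% (control) in the upper panel and at 16.6% (TGF-β1) and 17.9% (control) in the lower, where genome tiles stand at 1.16% (TGF-β1) and 1.14% (control).

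Peaks around tRNA genes were higher and wider than peaks at large. Their median height was 8 (highest 52) in TGF-β1-treated cells and 10 (highest 68) in control cells, against 5 over all peaks of each list. Their median width was 594 bp in the TGF-β1 list and 698 bp in the control list, against 339 bp (TGF-β1) and 358 bp (control) over all peaks. Of these peaks 45 (16.2%) were strong in TGF-β1-treated cells and 53 (20.5%) in control cells, against 2.58% (TGF-β1) and 2.9% (control) of all peaks. A rule of overlap takes in wide peaks more often than narrow ones, and its part in these differences was not tested. Some windows met in a single peak: 69 peaks of the TGF-β1 list and 65 of the control list touched the windows of 2 or more tRNA genes, and at most 4.

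The peaks centred on the tRNA genes. In the TGF-β1 list 152 of the 277 peaks (54.9%) lay on a tRNA gene itself, with a median height of 10, and the 125 that lay only in the flanks had a median of 6. In the control list 164 of 258 (63.6%) lay on a gene, with a median of 12, and the 94 in the flanks had a median of 7. A wide peak reaches a gene more easily than a narrow one, and the part of this in the medians was not tested. Counted by gene, 180 tRNA genes (42%) in TGF-β1-treated cells and 194 (45.2%) in control cells were themselves overlapped, against 7.54% (TGF-β1) and 6.8% (control) of tiles as wide as a tRNA gene. Of the genes with a strong window peak, a strong peak lay on the gene itself for 52 of 71 (73.2%) in the TGF-β1 list and 64 of 77 (83.1%) in the control list.

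By distance, the middle of the gene was covered by a peak at 38% of tRNA genes in TGF-β1-treated cells and 42.7% in control cells. At 1 kb on the left and right, coverage was 17.2% and 20.5% in the TGF-β1 list, and 16.6% and 20.7% in the control list. Between 5 and 10 kb away it averaged 7.97% in the TGF-β1 list and 8.09% in the control list, near the 6.45% (TGF-β1) and 5.85% (control) of bases covered over the genome. At the 100 tRNA genes with no other tRNA gene within 20 kb, coverage was 42% at the gene and 6.96% at 5 to 10 kb in the TGF-β1 list, and 43% and 6.17% in the control list, so the rise at the gene was as large without neighbouring tRNA genes. For these 100 genes the highest coverage, 45% in each list, lay 200 bp to the left of the middle of the gene. Few tRNA genes had their nearest peak close to the limit of 1 kb. It lay 801 to 1000 bp away for 6 genes in the TGF-β1 list (heights 3 to 6) and 8 in the control list (4 to 9). It lay 1001 to 1200 bp away, and so outside, for 4 genes in the TGF-β1 list (5 to 11) and 6 in the control list (4 to 19).

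**Figure D2:**
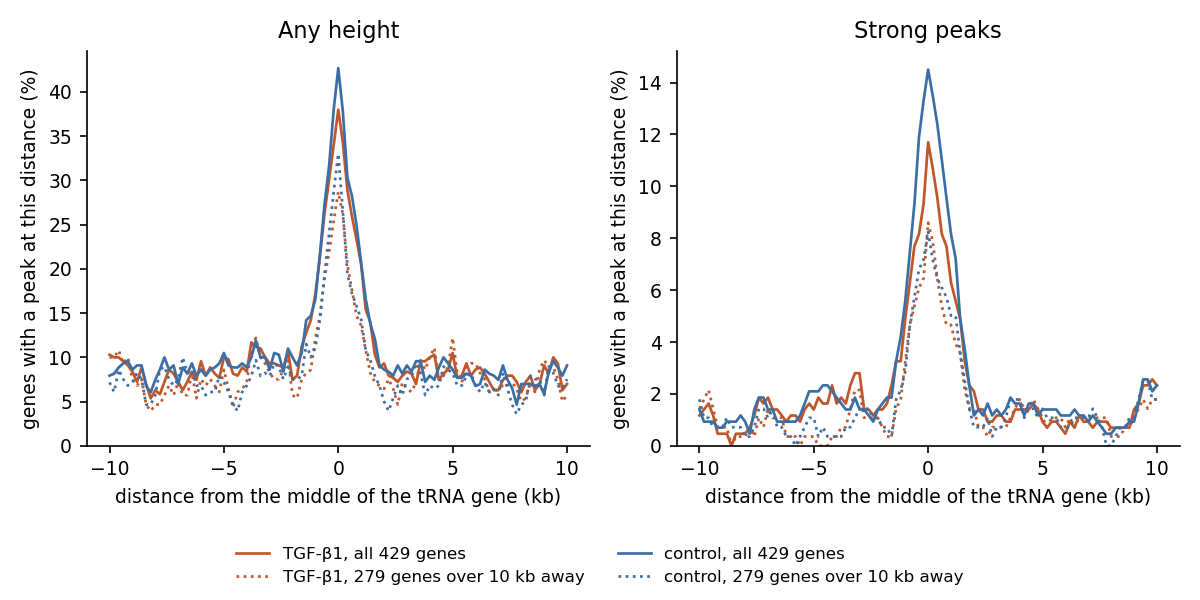
Share of tRNA genes covered by a FOXK1 peak (vertical axis, percent) by distance from the middle of the gene (horizontal axis, kb, in steps of 200 bp along the chromosome, not turned by strand), for peaks of any height (left) and strong peaks (right). Solid lines stand for all 429 genes and dotted lines for the 279 genes over 10 kb from a protein-coding gene end; coverage is highest at the gene, at 38% in the TGF-β1 list and 42.7% in the control list for all genes, and near 8% beyond 5 kb.

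Because FOXK1 peaks are frequent at protein-coding gene ends, tRNA genes were divided by their distance to the nearest annotated end of a protein-coding gene. Within 1 kb of one, 53 of 55 tRNA genes (96.4%) in TGF-β1-treated cells and 52 (94.5%) in control cells had a peak, against 50.1% (TGF-β1) and 50.2% (control) of tiles at that distance. At 1 to 10 kb, 75 of 95 (78.9%) in the TGF-β1 list and 73 (76.8%) in the control list had one, against 36.4% (TGF-β1) and 34.4% (control) of tiles. Over 10 kb away, 141 of 279 (50.5%) in the TGF-β1 list and 143 (51.3%) in the control list did, against 31.1% (TGF-β1) and 27.4% (control) of tiles. The share of tRNA genes with a peak was thus lower with distance and stayed above the tiles in each class.

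Strong peaks followed the same order. They lay at 14 (25.5%) of the nearest class in TGF-β1-treated cells and 17 (30.9%) in control cells, where 7.56% (TGF-β1) and 8.23% (control) of tiles held one. At 1 to 10 kb the counts were 22 (23.2%) in the TGF-β1 list and 29 (30.5%) in the control list, against 1.99% (TGF-β1) and 2.05% (control) of tiles. Over 10 kb away they were 35 (12.5%, interval 8.9 to 17) in the TGF-β1 list and 31 (11.1%, interval 7.68 to 15.4) in the control list, against 0.809% (TGF-β1) and 0.745% (control) of tiles. Small nucleolar RNA genes at this distance had a strong peak in 1.85% (TGF-β1) and 0.925% (control) of cases, microRNA genes in 2.34% (TGF-β1) and 2.07% (control), and small nuclear RNA genes in 19.6% (TGF-β1) and 17.9% (control). A long non-coding RNA starts within the window of 19 of the 279 distant tRNA genes, and of 3 of the 35 with a strong peak of the TGF-β1 list and 2 of the 31 of the control list. Distance to other transcribed elements was not tested.

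The highest peaks of both lists were at a glutamate and a threonine tRNA gene. TRE-TTC2-2 (chr15:26082234-26082305), a lone glutamate gene 217146 bp from the nearest protein-coding gene end, that of ATP10A, had a peak of height 52 in TGF-β1-treated cells and 59 in control cells, both on the gene. TRT-AGT2-1 (chr6:26532917-26532990), a threonine gene 5376 bp from HMGN4, had 44 in the TGF-β1 list and 68 in the control list. TRY-GTA1-1 (chr6:26568858-26568948), a tyrosine gene of the same cluster, had 31 in the TGF-β1 list and 51 in the control list. In the control list these 3 genes had the highest peaks of all 429, and in the TGF-β1 list the first 2 did.

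A single peak, chr6:26311638-26313398 at height 43 in TGF-β1-treated cells and chr6:26311633-26313211 at height 41 in control cells, covered TRQ-TTG3-2 (glutamine), TRS-TGA3-1 (serine) and TRX-CAT1-3 (initiator methionine) and lay 371 bp (TGF-β1) and 366 bp (control) from TRQ-TTG3-1. The height cannot be assigned to any 1 of these 4 genes, and they lie over 25 kb from the nearest protein-coding gene end, that of the histone gene H4C8. TRR-CCT3-1 (chr16:3152900-3152972), an arginine gene, had 33 in the TGF-β1 list and 42 in the control list, from peaks 311 bp (TGF-β1) and 342 bp (control) away from the gene. TRS-AGA4-1 (chr6:27553413-27553494), a serine gene 80308 bp from ZNF184, had 22 in the TGF-β1 list and 39 in the control list. TRQ-TTG1-1, a lone glutamine gene on chromosome 17, had 25 in the TGF-β1 list, from a peak 980 bp away, and 22 in the control list on the gene.

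Other high peaks lay at tRNA genes next to protein-coding genes. TRV-AAC1-1 (chr3:169772230-169772302), a valine gene 1094 bp from MYNN, had 34 in TGF-β1-treated cells and 38 in control cells. TRI-TAT1-1 (chr19:39412168-39412260), an isoleucine gene 409 bp from PLEKHG2, had 35 in the TGF-β1 list and 34 in the control list. TRL-AAG2-4 (chr16:22297140-22297221), a leucine gene, had 35 in the TGF-β1 list and 32 in the control list and lies 188 bp from the start of POLR3E, which encodes a subunit of Pol III itself. TRG-CCC2-1, a glycine gene 198 bp from TIA1, which encodes an RNA-binding protein of stress granules, had 22 in the TGF-β1 list and 29 in the control list; it was chosen after its values were seen. For these genes a peak at the tRNA gene and a peak at the neighbouring start cannot be told apart.

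The windows before POLR3E and TIA1 show how far the tRNA genes reach into these promoters. Below are 250 bases before each start from RefSeq GRCh38.p14, in capitals where they belong to the tRNA gene: chr16:22297159-22297408 on the plus strand, with 63 bases of TRL-AAG2-4, and chr2:70248794-70249043 on the minus strand, with 53 bases of TRG-CCC2-1. Neither held GTAAACA, the forkhead core, on either strand.

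POLR3E: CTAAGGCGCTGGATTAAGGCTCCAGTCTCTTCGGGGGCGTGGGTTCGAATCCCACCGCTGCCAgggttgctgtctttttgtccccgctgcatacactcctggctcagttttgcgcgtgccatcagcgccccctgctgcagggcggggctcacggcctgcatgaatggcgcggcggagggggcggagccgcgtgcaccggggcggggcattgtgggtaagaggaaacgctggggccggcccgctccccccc

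TIA1: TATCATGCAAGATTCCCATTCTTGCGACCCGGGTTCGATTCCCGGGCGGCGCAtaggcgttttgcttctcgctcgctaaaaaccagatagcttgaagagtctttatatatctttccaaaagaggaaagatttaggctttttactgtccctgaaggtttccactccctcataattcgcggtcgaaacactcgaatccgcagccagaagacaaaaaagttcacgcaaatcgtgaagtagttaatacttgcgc

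GTAAACA was found on either strand in 3.42% of all 34789 promoter windows of 300 bases and in 1 of the 77 windows (1.3%) that lay within 1 kb of a tRNA gene. Among all promoter windows with a strong peak it was in 6.95% for the TGF-β1 list and 6.74% for the control list. It was in 0 of 15 windows near a tRNA gene with a strong peak of the TGF-β1 list and 0 of 18 of the control list. The shorter TAAACA, which GTAAACA contains, was in 12.3% of all windows and 7.79% of those near a tRNA gene. Among windows with a strong peak it was in 20% of the 15 near a tRNA gene, against 14% of all, for the TGF-β1 list, and in 16.7% of the 18, against 13.6% of all, for the control list. The B box core GTTCNANNC was in 7.47% of all windows and 29.9% of those near a tRNA gene, some of which hold the tRNA gene itself. These are counts of letters in a window.

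The lists held largely the same tRNA genes. A peak was within 1 kb in both lists for 234 genes (54.5%), against 12.6% of tiles. It was in the TGF-β1 list alone for 35 (8.16%), in the control list alone for 34 (7.93%), and in neither for 126 (29.4%). Of tiles, 32.4% held a TGF-β1 peak and 29.1% a control peak, so most tiles with a peak held it in 1 list alone. A peak in 1 list alone was thus less frequent at tRNA genes than in tiles. For 206 of the 234 (88%) the highest peaks of the 2 lists overlapped. Strong peaks were in both lists at 58 genes (13.5%), against 0.716% of tiles. They were in the TGF-β1 list alone at 13 (3.03%) and in the control list alone at 19 (4.43%). Of tiles, 1.16% held a strong peak of the TGF-β1 list and 1.14% one of the control list, shared or not. Each of the 13 had a control peak below the strong limit in its window, and each of the 19 a TGF-β1 peak below it. The limits differ, at 15 in the TGF-β1 list and 17 in the control list, so the control peak was not always lower. At the single gene of family TRQ-CTG6 (glutamine) the height was 16 in both lists. The highest peak of every gene with a strong one, 71 in the TGF-β1 list and 77 in the control list, was overlapped by a peak of the other list.

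Counted by peak, 199 of 277 peaks of the TGF-β1 list (71.8%) and 190 of 258 of the control list (73.6%) were overlapped by a peak of the other list, against 22.9% (TGF-β1) and 26.1% (control) of all peaks. Much of this goes with height. At heights of 5 to 9 the shares were 61.4% in the TGF-β1 list and 52.2% in the control list, against 23.3% (TGF-β1) and 24% (control) of all peaks, and at 10 to 14 they were 94.9% (TGF-β1) and 89.7% (control), against 79.2% (TGF-β1) and 75.2% (control). At 15 and above each of the 45 peaks of the TGF-β1 list and the 68 peaks of the control list was overlapped.

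tRNA genes with a peak in 1 list alone had low peaks. Those in the TGF-β1 list alone had heights of 3 to 9 with a median of 5, and no control peak overlapped them. The highest were TRC-GCA6-1 and TRC-GCA2-2, both cysteine genes, at 9, and TRG-CCC5-1 (glycine), TRY-GTA3-1 (tyrosine), TRM-CAT2-1 (elongator methionine) and the proline genes TRP-AGG2-4 and TRP-TGG2-1, which share a peak, at 7. TRN-GTT7-1 (asparagine) had 6. Those in the control list alone had heights of 4 to 13 with a median of 6. The highest were the cysteine genes TRC-GCA8-1 at 13, 873 bp from DCAF4, and TRC-GCA1-1 at 11, and TRS-GCT1-1 (serine) and TRT-TGT4-1 (threonine) at 10. TRK-TTT6-1 (lysine), TRS-TGA4-1 (serine) and TRC-GCA9-4 (cysteine) had 9 and TRC-GCA7-1, inside FNBP1L, had 8. At TRK-TTT6-1 a TGF-β1 peak of height 7 overlapped the control peak outside the 1 kb window.

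**Figure D3:**
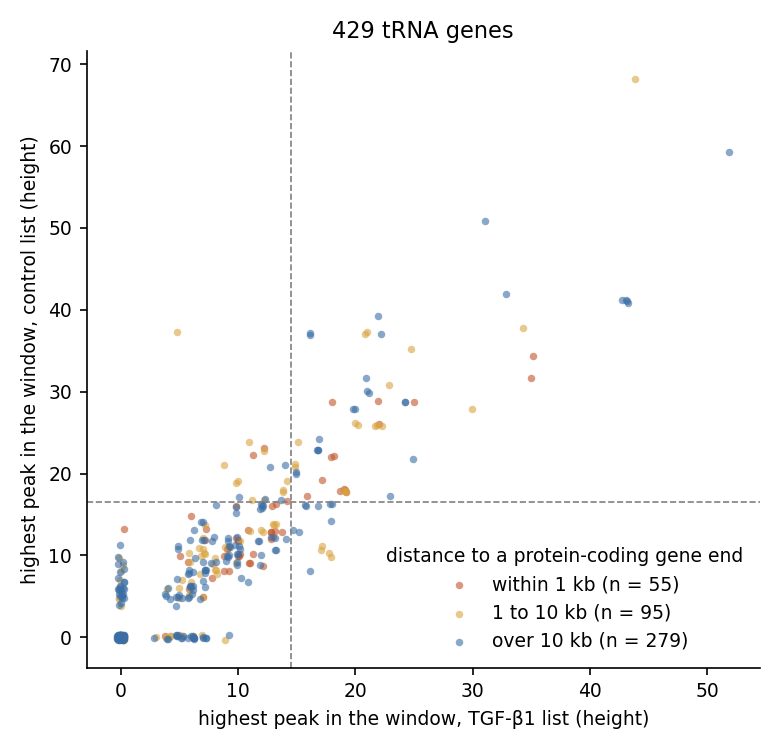
Height of the highest peak within 1 kb of each of the 429 tRNA genes in the TGF-β1 list (horizontal axis) and the control list (vertical axis), with 0 for no peak, a small random offset to part overlapping points, and colours for the distance to a protein-coding gene end. Dashed lines mark where strong peaks begin, at 15 in the TGF-β1 list and 17 in the control list; genes with a peak in 1 list alone lie along the axes at 9 or below in the TGF-β1 list and 13 or below in the control list.

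One point of the height plot stands far from the rest. TRR-CCT1-1, an arginine gene 1335 bp from KCTD2 on chromosome 17, had 5 in the TGF-β1 list and 37 in the control list, and neither peak lay on the gene. Its neighbours TRR-CCT2-1 and TRR-TCG3-1 had 21 in the TGF-β1 list and the same control peak of 37. The control peak at TRR-CCT1-1 was overlapped by a TGF-β1 peak of height 21, which lay outside the 1 kb window of that gene. These genes were chosen after their values were seen.

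Grouped so that neighbouring genes at most 50 kb apart fall together, the 429 genes formed 130 clusters, 81 of them of a single gene and 16 of 5 or more genes, which held 266 genes. Of the 81 single genes 60 (74.1%) had a peak in each list. In the 16 large clusters 161 genes (60.5%) had one in TGF-β1-treated cells and 165 (62%) in control cells. The large clusters ranged from no gene to every gene with a peak.

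Every gene had a peak in both lists in the cluster of 5 on chromosome 12 (chr12:124921755-124940037), which includes TRD-GTC2-9 (aspartate) and TRF-GAA1-4 (phenylalanine), which share peaks of height 24 in TGF-β1-treated cells and 29 in control cells, and TRA-TGC4-1 (alanine) at 20 (TGF-β1) and 26 (control). The same held for the cluster of 8 on chromosome 11 (chr11:59550629-59566452), led by the lysine gene TRK-TTT3-4 at 21 in the TGF-β1 list and 32 in the control list. On chromosome 16 (chr16:3150674-3192060) 14 of 14 genes in the TGF-β1 list and 12 in the control list had a peak, but only TRR-CCT3-1 a strong one.

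The cluster of 18 on chromosome 17 (chr17:8119155-8227064) had the most genes with a strong peak among the clusters, 10 in each list, 8 of them in both. A peak of height 22 in TGF-β1-treated cells and 26 in control cells lay within 1 kb of 4 of them: TRW-CCA3-3 (tryptophan), TRS-GCT4-3 (serine), TRT-AGT1-1 (threonine) and TRI-AAT5-5 (isoleucine). The other 4 genes strong in both lists shared a peak of 19 in the TGF-β1 list and 18 in the control list, beside HES7 and ALOXE3. In the same cluster TRT-AGT1-2, TRS-AGA2-6 and TRI-AAT4-1 had no peak in either list.

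On chromosome 5 (chr5:181164154-181222467) 11 of 13 genes in the TGF-β1 list and 12 in the control list had a peak, the highest at TRV-AAC1-4 (valine) with 25 (TGF-β1) and 35 (control). On chromosome 14 (chr14:20609336-20684087) 11 of 14 in the TGF-β1 list and 9 in the control list did, led by TRP-AGG2-6 (proline) with 21 (TGF-β1) and 30 (control). Other clusters had few or weak peaks. In the tandem cluster of 31 genes on chromosome 1 (chr1:161399700-161540314) 6 genes in the TGF-β1 list and 8 in the control list had a peak, none of them strong. These shares, 19.4% (TGF-β1) and 25.8% (control), lay below the 32.4% (TGF-β1) and 29.1% (control) of genome tiles. The whole stretch held 7.82 (TGF-β1) and 6.4 (control) peaks per 100 kb, against 15.2 (TGF-β1) and 13.2 (control) over the genome. The highest were TRL-CAG1-6 (leucine) with 12 (TGF-β1) and 13 (control) and TRV-CAC1-1 (valine) with 7 (TGF-β1) and 14 (control). Near-identical tandem copies make counts there uncertain, since how reads that match several copies were treated is not given in the sources used here.

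Chromosome 6 showed both ends of the range. Of its 7 clusters of 5 or more genes, 5 had a peak at most genes. At chr6:26286526-26331515 it was 11 of 13 genes in each list, at chr6:26521208-26594962 it was 12 of 13 in TGF-β1-treated cells and 11 in control cells, at chr6:27478812-27795932 it was 25 (TGF-β1) and 23 (control) of 33, and at chr6:28474552-28989083 it was 31 (TGF-β1) and 32 (control) of 43. Strong peaks were at 5 genes in the TGF-β1 list and 6 in the control list in the second of these, and at 4 in each list in the last, where TRF-GAA1-2 (phenylalanine) had 16 (TGF-β1) and 37 (control) and TRL-CAA1-2 (leucine) 18 (TGF-β1) and 16 (control). The fifth, chr6:27158127-27335062, had a peak at 11 of 18 genes in each list, led by TRQ-CTG5-1 (glutamine) with 11 (TGF-β1) and 7 (control) and TRH-GTG1-5 (histidine) with 10 (TGF-β1) and 17 (control).

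None of the 18 genes at chr6:26673362-26828299 (10 alanine, 5 methionine and 3 isoleucine genes) had a peak in either list. Over that whole stretch the TGF-β1 list held 2 peaks, of height 4 at most, and the control list 0, against 15.2 (TGF-β1) and 13.2 (control) peaks per 100 kb over the genome. The 6 genes at chr6:57800211-57856473 likewise had none, and neither list held any peak over the stretch. Absence of peaks there was not limited to the tRNA genes. How reads that match several copies were treated is not given, and whether reads could be placed there was not tested. The lack of peaks in these stretches is therefore uncertain.

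On chromosome 7, where cysteine tRNA genes are gathered, few tRNA genes had a peak in the TGF-β1 list, and none had a strong one in either list. The shares in the 2 clusters were 16.7% and 7.69% in the TGF-β1 list, below the 32.4% of genome tiles. In the control list they were 50% and 38.5%, above the 29.1% of tiles. At chr7:149310190-149415209, 1 of 6 genes in the TGF-β1 list and 3 in the control list had a peak, and at chr7:149546540-149707740 1 of 13 in the TGF-β1 list and 5 in the control list did. The highest of these peaks had heights of 6 in the TGF-β1 list and 11 in the control list in the first cluster, and 4 (TGF-β1) and 9 (control) in the second. The stretches themselves held peaks at near the genome's rate, with 12.4 (TGF-β1) and 11.4 (control) per 100 kb in the first and 12.4 (TGF-β1) and 15.5 (control) in the second.

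**Figure D4:**
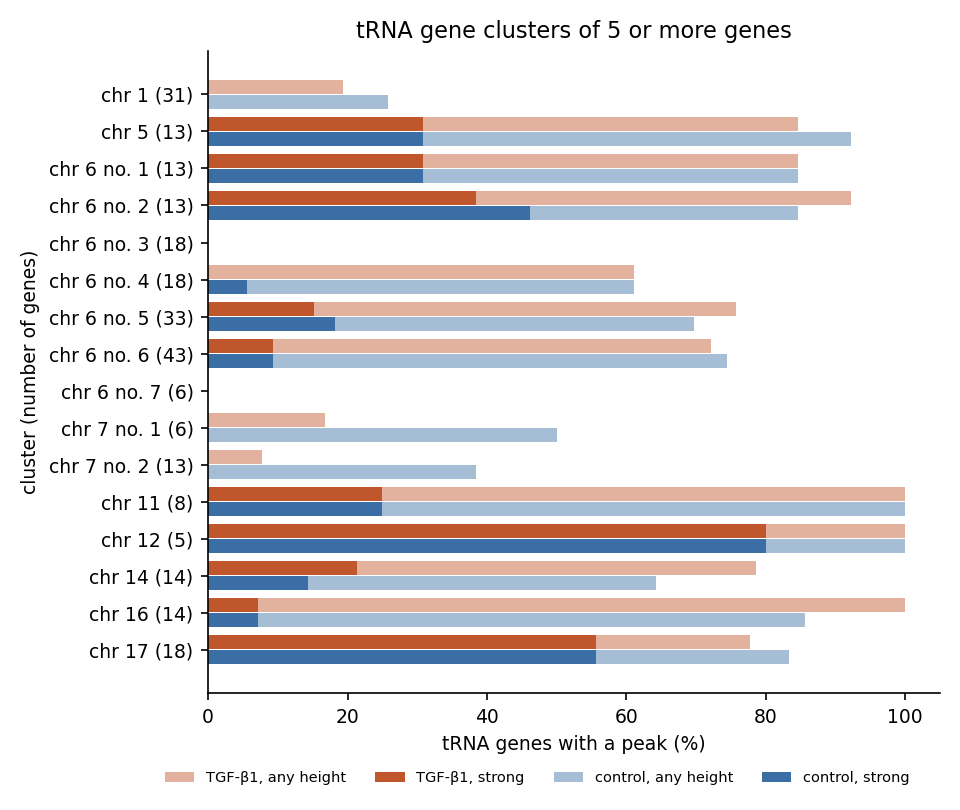
Share of tRNA genes with a FOXK1 peak (horizontal axis, percent) in the 16 clusters of 5 or more genes (vertical axis, by chromosome and position, number of genes in brackets), with the TGF-β1 list above the control list in each pair and the darker part for strong peaks. The 2 chromosome 6 clusters of 18 and 6 genes without any peak stand as gaps, and the chromosome 12 cluster has strong peaks at 4 of 5 genes in each list.

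By isotype, all 8 initiator methionine genes and all 20 proline genes had a peak in TGF-β1-treated cells, against all 8 and 16 of 20 in control cells. Tryptophan (6 of 7 genes in each list), threonine (16 of 20 in each), arginine (21 of 26 in the TGF-β1 list and 19 in the control list) and lysine (20 in TGF-β1 and 22 in control of 27) also had high shares. Cysteine genes had the lowest share in the TGF-β1 list, with 8 of 29, against 15 in the control list. Of these 29, 18 lie in the chromosome 7 clusters. Elongator methionine had 5 (TGF-β1) and 4 (control) of 11, of which 6 lie in the chromosome 6 clusters with no peak at any tRNA gene, and asparagine 11 (TGF-β1) and 9 (control) of 21. Most of the asparagine genes lie on chromosome 1, with copies in the tandem cluster and near NBPF genes, so their share is uncertain.

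Strong peaks ran in another order. They were at 9 of 32 leucine genes in each list, 5 of 13 aspartate genes in the TGF-β1 list and 4 in the control list, 7 (TGF-β1) and 4 (control) of 19 glutamine genes, and 4 (TGF-β1) and 6 (control) of 15 glutamate genes. Only 1 of 37 alanine genes in the TGF-β1 list and 2 in the control list had one. Of the alanine genes, 10 lie at chr6:26673362-26828299 and 3 at chr6:57800211-57856473, the clusters with no peak at any tRNA gene. Counts this small, over genes that share peaks, do not set isotypes apart.

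**Figure D5:**
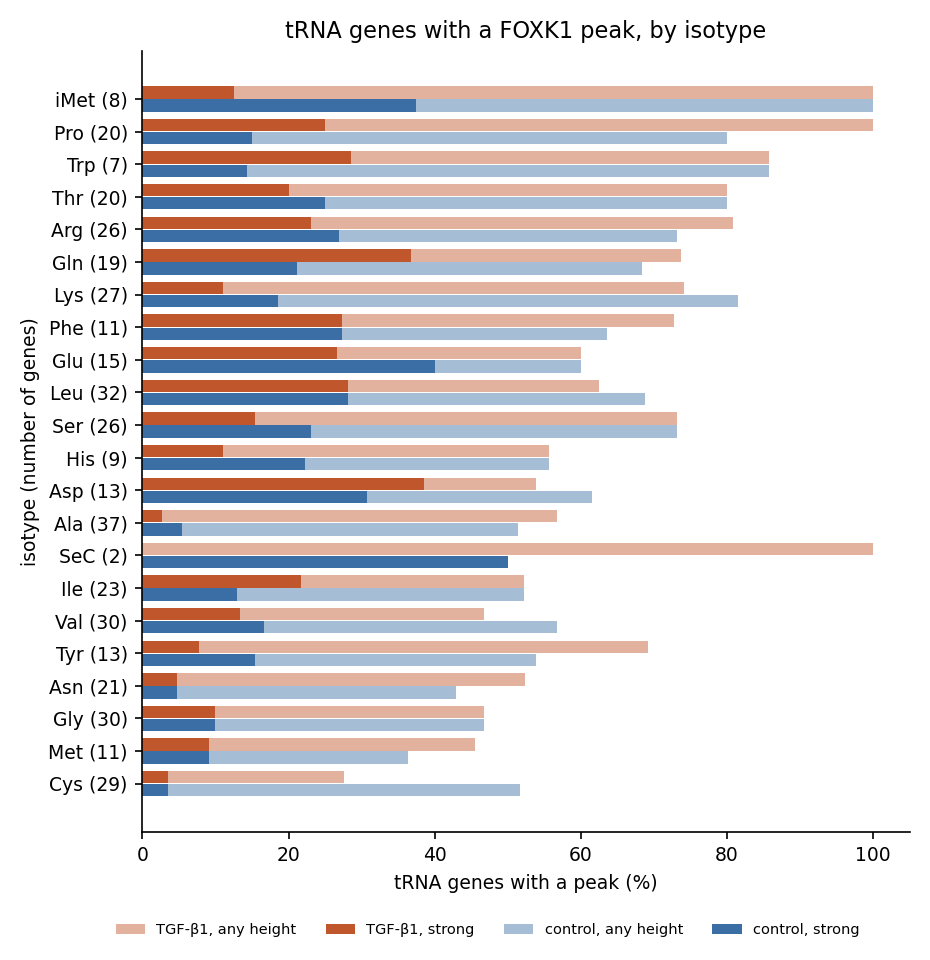
Share of tRNA genes with a FOXK1 peak (horizontal axis, percent) by isotype (vertical axis, number of genes in brackets), with the TGF-β1 list above the control list in each pair and the darker part for strong peaks. Initiator methionine (iMet) stands at 100% in both lists, and cysteine is lowest in the TGF-β1 list, with 8 of 29 genes.

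The 8 initiator methionine genes share 1 mature sequence, and their heights differed widely. TRX-CAT1-3 lay under the shared peak of 43 in TGF-β1-treated cells and 41 in control cells. TRX-CAT1-1, 257 bp from ILF2, had 11 (TGF-β1) and 22 (control), and TRX-CAT1-8, 4184 bp from NARF, had 11 (TGF-β1) and 24 (control). The other five ranged from 6 to 13 in the TGF-β1 list and from 8 to 15 in the control list. Of the selenocysteine genes, TRU-TCA1-1 had 12 in the TGF-β1 list and 17 in the control list, and TRU-TCA2-1, inside PARVB, had 3 in the TGF-β1 list and none in the control list.

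Copies with the same mature sequence were compared in the same way in the other families. Of the 57 families of 2 or more copies, which hold 222 genes, 24 had a peak at every copy in both lists, 9 had none at any copy, and 17 had a copy with peaks in both lists beside a copy with none. A strong copy stood beside a copy without a peak in 11 families in TGF-β1-treated cells and 14 in control cells. The histidine family TRH-GTG1 had peaks in both lists at 5 of 9 copies, the highest at TRH-GTG1-1 with 17 in the TGF-β1 list and 23 in the control list, and none at the other 4. Of the 4 copies without peaks, 3 lie on chromosome 1 in the region of NBPF genes. The aspartate family TRD-GTC2 had peaks in both lists at 6 of 11 copies, and its 4 copies without a peak in either list all lie in the tandem cluster of chromosome 1. Copies in that cluster, in the NBPF region or in the chromosome 6 clusters with no peak at any tRNA gene are uncertain. The family counts that rest on them are uncertain too. The lysine family TRK-TTT3 had peaks in both lists at all 5.

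Genes whose symbol has a first number of 6 or more had a peak less often than genes with lower numbers, which showed no steady order. Genes numbered 1 had one in 67.2% of 116 cases in TGF-β1-treated cells and 68.1% in control cells, genes numbered 2 in 83.7% (TGF-β1) and 75% (control) of 104, and genes numbered 3 to 5 in 65.1% (TGF-β1) and 64.3% (control) of 126. Genes numbered 6 or more had one in 29.3% of 75 cases in the TGF-β1 list and 40% in the control list, and a strong one in 1.33% (TGF-β1) and 2.67% (control). Of these 75, 28 lie in the chromosome 7 clusters or the clusters with no peak at any tRNA gene, and the part of this in the lower share was not tested.

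The genes that serve tRNA synthesis were read from lists chosen with earlier results of these data known. Of 30 genes for Pol III subunits and its factors, 29 had a peak within 1 kb of a gene end in TGF-β1-treated cells and 30 in control cells, against 75.2% (TGF-β1) and 75.8% (control) of 19821 protein-coding genes. Strong peaks were at 10 in the TGF-β1 list and 12 in the control list, against 15.9% (TGF-β1) and 17.2% (control) of protein-coding genes. Median heights, with genes without a peak counted as 0, were 12 (TGF-β1) and 14 (control), against 7 (TGF-β1) and 8 (control). These medians therefore also reflect the shares of genes with a peak. In the TGF-β1 list the highest were at MAF1, the repressor of Pol III, with 66 in the TGF-β1 list and 48 in the control list, at GTF3C2, a TFIIIC subunit, with 39 (TGF-β1) and 48 (control), and at POLR3E, with 35 (TGF-β1) and 32 (control). TBP, the TATA-binding protein that is part of TFIIIB, had 29 in the TGF-β1 list and 47 in the control list. The polymerase subunit genes POLR2H (26 in TGF-β1 and 24 in control), POLR3K (22 in TGF-β1 and 22 in control) and POLR3D (19 in TGF-β1 and 14 in control) and the TFIIIC gene GTF3C4 (21 in TGF-β1 and 17 in control) followed in the TGF-β1 list. The control list ran in another order: POLR2L, for a shared polymerase subunit, had 7 in the TGF-β1 list and 33 in the control list, and POLR3A and POLR3GL, also for polymerase subunits, had 15 in the TGF-β1 list and 23 in the control list each. The control peak of POLR2L, chr11:843122-844937, lay outside the gene and reached past the 1 kb limit. Whether a higher TGF-β1 peak lay beyond that limit was not tested. BRF1, a TFIIIB subunit, had no peak in the TGF-β1 list and 6 in the control list.

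Among 25 genes for tRNA processing and export, 24 had a gene-end peak in TGF-β1-treated cells and 25 in control cells, against 75.2% (TGF-β1) and 75.8% (control) of protein-coding genes. Strong ones were at 5 (TGF-β1) and 7 (control), against 15.9% (TGF-β1) and 17.2% (control) of protein-coding genes. TRMT61A, a subunit of the enzyme that methylates an adenine of tRNA, had 71 in the TGF-β1 list and 70 in the control list, and its partner TRMT6 had 20 (TGF-β1) and 26 (control). CLP1, an RNA kinase of the tRNA splicing complex, had 35 in the TGF-β1 list and 70 in the control list. SSB, the La protein that binds new Pol III transcripts, had 33 (TGF-β1) and 34 (control). TSEN34, a splicing endonuclease subunit, had 14 (TGF-β1) and 23 (control). XPOT, the tRNA exporter, had 18 (TGF-β1) and 19 (control). Both XPOT peaks lay outside the gene, past its end at chr12:64451125, and whether they belong to XPOT was not tested.

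Other genes that Pol III transcribes carried peaks too. All 20 of those listed had a peak within 1 kb in each list, against 32.4% (TGF-β1) and 29.1% (control) of genome tiles. A strong one was at 6 in each list, against 1.16% (TGF-β1) and 1.14% (control) of tiles, with median heights of 12.5 in TGF-β1-treated cells and 11 in control cells. RNU6ATAC, a small nuclear RNA of the minor spliceosome, had 46 in the TGF-β1 list and 35 in the control list, and RNY3, a Y RNA, 24 (TGF-β1) and 35 (control). RPPH1, the RNA of RNase P, which trims the 5′ ends of tRNAs, had 18 in the TGF-β1 list and 15 in the control list. RN7SK, the RNA that holds the elongation factor P-TEFb inactive, had 17 (TGF-β1) and 10 (control). RNY5 had 18 in each list, and VTRNA1-2 had 15 (TGF-β1) and 27 (control). RN7SL2 had 14 (TGF-β1) and 28 (control), and RN7SL1 had 13 (TGF-β1) and 23 (control). The part of nearby protein-coding gene ends in these peaks was not tested. Most of these genes, unlike tRNA genes, take their promoter from upstream elements, so peaks in HK-2 cells lay at genes of both promoter kinds.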

How the data were processed

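The submitters' processing notes name MACS2 2.1.1.20160309, bcl2fastq 2.17 and the hg38 build. The deposited signal is the authors' pileup height per peak, listed for each condition separately and, per the names of the lists, against its own input. The aligner, read filters, peak threshold and read numbers are not given in the sources used here. Peak starts were read as counting from 0.

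tRNA genes came from RefSeq (GRCh38.p14). Of 443 rows on chromosomes 1 to 22 and X, 14 with positions out of chromosome order, counted on other scaffolds, were left out, as were mitochondrial genes. Overlaps, tiles and intervals were computed in scipy 1.17.1, pandas 2.3.3 and numpy 2.4.6 under Python 3.11.15, and checked on simulated intervals. Figures used matplotlib 3.10.9. Tiles lay in blocks of 100 kb that hold a peak of either list. Named genes are the 10 highest of each list, the 8 highest over 10 kb from a protein-coding gene end, the 8 highest in 1 list alone, the highest of each large cluster and isotype, the initiator and selenocysteine genes, and the highest of the pathway lists; not all are printed. The members, gene lists and rules were chosen with earlier results of these data known. Alternatives were other flanks, heights, ranks, overlaps, distances and cluster gaps.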

Additional observations from a re-analysis of the deposited data

How the results depend on the processing

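Of 48 values recomputed under another setting, 36 stayed within 1.5 times the reported one and 12 did not. The count of tRNA genes with a peak was 142 in the TGF-β1 list and 175 in the control list at height 10 or more, and 172 in each list (of 275) without chromosome 6. Genes with a strong peak numbered 31 in the TGF-β1 list and 45 in the control list down to rank 5000, and 119 in the TGF-β1 list (114 in the control list, within 1.5 times) down to rank 20000. Over 20 kb from a protein-coding gene end, 88 (TGF-β1) and 90 (control) of 208 genes had a peak, which is 42.3% in TGF-β1 and 43.3% in control, against 30.6% (TGF-β1) and 26.8% (control) of tiles. With cluster gaps of 10 kb, 144 of 216 clusters had a TGF-β1 peak, within 1.5 times, and 146 a control peak. Of the 55 genes for Pol III and tRNA processing, 15 in the TGF-β1 list and 19 in the control list had a strong peak, against 53 (TGF-β1) and 55 (control) with any. These counts follow from the stricter or looser limit. The share of tRNA genes with a peak stayed above that of tiles with other flanks. At 0.5 kb it was 56.6% in TGF-β1 and 57.6% in control, against 21.4% (TGF-β1) and 19% (control) of tiles, and at 2 kb 67.8% in TGF-β1 and 68.8% in control, against 49.2% (TGF-β1) and 45% (control). The exclusion of chromosome 6, the 14 rows of other scaffolds and genes without a number were added after the data were seen. No paired analysis was possible because each condition had 1 library. Depth is unknown, so no height or count measures a change with TGF-β1. Libraries with another antibody were not analysed here, and signal at tRNA genes that any antibody would give was not tested.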
